A study of Mus musculus with 24 samples.

Results

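The 10 genes described here mark the pyramidal neurons of the hippocampal subfields CA1, CA2 and CA3, and they were taken by name from a table of 21793 genes. Wfs1, Fibcd1, Pou3f1 and Mpped1 stood for CA1, Rgs14, Amigo2 and Cacng5 for CA2, and Grik4, Bok and Iyd for CA3. All 10 passed the filter on low values, and the least abundant of them, Iyd, had between 8 and 101 reads per library. The measurement was bulk RNA-seq of polyadenylated RNA from the hippocampus of female mice, in 24 libraries of 6 groups, with 1 hippocampus of 1 mouse per library.

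The 3xTg-AD mice (3xTg) are an Alzheimer's disease model in which a Thy1 cassette, active in neurons, drives human APP and MAPT. The wild-type mice (WT) were of the strain B6129SF2/J, so the transgenes and any other difference between the strains cannot be told apart. The diets began at 3 months of age and lasted 6 months. The ketogenic diet held no carbohydrate, 90% long-chain triglycerides and 10% protein at 6.7 kcal/g, and was eaten by 5 3xTg and 4 WT mice. The diet with medium-chain triglycerides (MCT) held medium-chain and long-chain triglycerides at 10% each, with 70% carbohydrate and 10% protein at 4.1 kcal/g, and was eaten by 4 3xTg and 4 WT mice. The control diet held 70% carbohydrate, 20% long-chain triglycerides and 10% protein at 4.1 kcal/g, and was eaten by 3 3xTg and 4 WT mice. The design thus asks how genotype, diet and their combination bear on hippocampal transcripts.

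Dentate granule cells send mossy fibres to CA3 pyramidal cells, CA3 cells send Schaffer collaterals to CA1, and CA1 is the main output of the hippocampus to the subiculum and cortex. CA2 lies between CA3 and CA1 and is known in mice for social memory and for resistance to long-term potentiation at its Schaffer collateral synapses. CA1 neurons are among the first hippocampal neurons lost in Alzheimer's disease. Marker genes of these cells are rarely exclusive to them: Wfs1, for example, is also transcribed in superficial layers of the neocortex.

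The RefSeq promoter table (build GRCm38.p6, 250 bases before to 50 bases after a gene's start) held an entry for 8 of the 10 genes. The promoters of Wfs1, Amigo2 and Iyd are shown as 1 gene of each subfield: Wfs1 was called between the genotypes over 24 libraries, Amigo2 over 21, and Iyd had the largest estimate among the CA3 genes. All are written 5′ to 3′ on the gene's own strand, with capitals marking GC boxes (GGGCGG, or CCGCCC on the other strand) and CCAAT boxes (CCAAT, or ATTGG on the other strand). The Wfs1 promoter is at chr5:36988933-36989232 on the minus strand, the Amigo2 promoter at chr15:97247238-97247537 on the minus strand, and the Iyd promoter at chr10:3540024-3540323 on the plus strand.
Wfs1: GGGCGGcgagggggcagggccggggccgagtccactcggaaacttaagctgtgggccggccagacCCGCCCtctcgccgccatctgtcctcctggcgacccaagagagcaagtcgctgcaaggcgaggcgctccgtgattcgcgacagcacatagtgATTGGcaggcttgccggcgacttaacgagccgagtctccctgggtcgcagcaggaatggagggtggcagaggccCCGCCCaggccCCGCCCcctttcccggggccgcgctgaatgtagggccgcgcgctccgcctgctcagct
Amigo2: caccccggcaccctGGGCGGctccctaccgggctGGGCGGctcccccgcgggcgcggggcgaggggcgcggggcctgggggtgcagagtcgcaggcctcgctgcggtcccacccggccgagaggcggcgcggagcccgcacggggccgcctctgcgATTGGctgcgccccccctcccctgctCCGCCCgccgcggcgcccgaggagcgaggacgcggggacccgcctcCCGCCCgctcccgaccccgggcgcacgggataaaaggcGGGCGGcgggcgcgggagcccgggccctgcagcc
Iyd: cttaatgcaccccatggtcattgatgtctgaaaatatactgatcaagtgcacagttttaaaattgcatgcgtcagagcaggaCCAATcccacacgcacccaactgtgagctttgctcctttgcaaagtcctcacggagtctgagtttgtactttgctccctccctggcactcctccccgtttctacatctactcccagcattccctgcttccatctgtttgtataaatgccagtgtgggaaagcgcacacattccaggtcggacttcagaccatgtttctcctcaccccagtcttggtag
The Wfs1 sequence held 30 CpG dinucleotides, 4 GC boxes and 1 CCAAT box, and the Amigo2 sequence 46 CpG dinucleotides, 5 GC boxes and 1 CCAAT box. The Iyd sequence differed in kind from both, with 6 CpG dinucleotides, no GC box, 1 CCAAT box and 1 TATA box (TATAAA, searched on both strands and left in lower case). Of all 32851 promoters in the table, 35.7% held a GC box, 37.4% a CCAAT box and 13.6% a TATA box, and the median was 7 CpG dinucleotides. These are letter matches in a fixed window and not measured binding.

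All 10 genes are protein-coding in GENCODE release M21 on GRCm38. The CA1 genes are Wfs1 at chr5:36966104-36989205, Fibcd1 at chr2:31813290-31846005, Pou3f1 at chr4:124656807-124660655 and Mpped1 at chr15:83779467-83858494. The CA2 genes are Rgs14 at chr13:55369732-55384687, Amigo2 at chr15:97244125-97247287 and Cacng5 at chr11:107874605-107915055, and the CA3 genes are Grik4 at chr9:42518135-42944493, Bok at chr1:93685660-93695764 and Iyd at chr10:3540240-3554877.

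Library depth ranged from 10.1 to 25.8 M reads in 23 libraries and was 2.65 M in 3xTg ketogenic replicate 2. Thy1, whose level follows the transgene cassette, was used to check the genotype labels. It lay between 20385 and 29277 normalised counts in 10 of the libraries labelled 3xTg and between 6952 and 8137 in 11 of those labelled WT. In 3 libraries Thy1 went against the label: 9189 and 8112 normalised counts in the libraries labelled 3xTg control replicate 3 and 3xTg ketogenic replicate 1, and 23048 in the library labelled WT MCT replicate 2. App, read for the same check, went with Thy1 in these 3 libraries. It had 23524 normalised counts in 3xTg control replicate 3, 23020 in 3xTg ketogenic replicate 1 and 30297 in WT MCT replicate 2. In the other libraries App lay between 29473 and 37175 for the label 3xTg and between 21293 and 25302 for the label WT. No library was relabelled. Genotype differences of the 10 genes averaged over diets are given over all 24 libraries and over the 21 others, and further results over the 21 where stated. Normalised counts are reads divided by 1 factor per library, set by the authors, and differences are log2 differences of these counts after adding 1, tested with limma. A gene was called at a Benjamini-Hochberg adjusted p under 0.05 over 14162 genes.

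Levels were compared between genes as normalised counts per kilobase of annotated exon and per M counts of the library. The 3 leading genes were CA1 markers. Mpped1, which encodes a metallophosphoesterase domain protein, averaged 40.5 ± 3.93 on this scale (SD, n = 24). Wfs1, which encodes wolframin, a membrane glycoprotein of the endoplasmic reticulum that is mutated in Wolfram syndrome, averaged 29.4 ± 6.65, and Fibcd1, a membrane protein with a fibrinogen-like domain that binds chitin, averaged 22.2 ± 2.31 (SD, n = 24 each).
Next in order came Bok, a BCL2-family protein, at 18.2 ± 2.82, Rgs14, a regulator of G protein signalling, at 14.9 ± 1.43, and Pou3f1, a POU-domain transcription factor, at 14.2 ± 1.49 (SD, n = 24 each). Amigo2, a leucine-rich-repeat adhesion protein of the cell surface, averaged 9.91 ± 1.46 and Grik4, a kainate receptor subunit, 8.32 ± 0.859 (SD, n = 24 each). Iyd, the enzyme that recovers iodide from iodotyrosines in the thyroid, averaged 2.44 ± 0.822, and Cacng5, an auxiliary subunit of AMPA receptors, 2.27 ± 0.50 (SD, n = 24 each). Of neighbours in this order, the ranges overlapped for every pair except Grik4 and Iyd.
The order of the group means was the same in all 6 groups apart from 2 pairs. Pou3f1 stood above Rgs14 in the WT control group only. Iyd stood below Cacng5 in all 3 3xTg groups and above it in all 3 WT groups. The gap was narrowest in 3xTg mice on MCT, at 2.29 ± 0.73 for Iyd and 2.37 ± 0.21 for Cacng5 (SD, n = 4). It was widest in WT mice on the ketogenic diet, at 3.09 ± 0.84 and 1.99 ± 0.23 (SD, n = 4). This order was not tested, and the groups include the libraries whose Thy1 level went against their label.

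**Figure D1:**
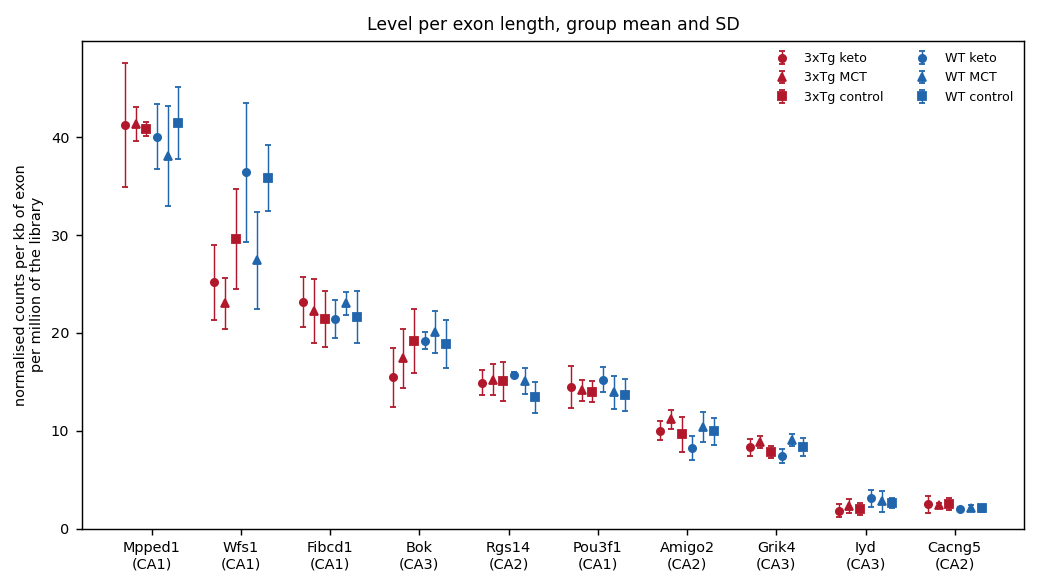
Level of each marker gene in normalised counts per kilobase of exon per M counts of the library (vertical axis), as group mean (symbol) and SD (bar) for the 6 groups of 3 to 5 libraries. Mpped1, Wfs1 and Fibcd1 stand highest with overall means of 40.5, 29.4 and 22.2, and Iyd and Cacng5 lowest at 2.44 and 2.27.

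Between the genotypes, averaged over the 3 diets, the CA1 gene Wfs1 was lower in 3xTg mice and was the 1 gene of the 10 that was called. The other CA1 genes gave differences close to 0, the 3 CA2 genes all had positive estimates, and 2 of the 3 CA3 genes had negative ones. Of all genes tested 8.1% were called in this comparison, 3.71% higher and 4.38% lower in 3xTg mice, so a count of 1 in 10 is near that share. The median log2 difference was 0.013 over the 10 genes and -0.00082 over all genes. In bulk tissue, fewer cells of a type and less RNA per cell cannot be told apart.

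Wfs1 had 1072, 1325 and 1867 normalised counts as lowest, median and highest of the 12 3xTg libraries, against 1150, 1801 and 2451 in the 12 WT libraries. The ranges overlapped, with 11 of 12 3xTg libraries below the WT mean and 5 of 12 WT libraries above every 3xTg library. Wfs1 fell by 21.5%, a log2 difference of -0.35 ± 0.08 (SE; 95% confidence interval -0.52 to -0.18) with a limma adjusted p of 0.0107. By p-value it ranked at place 374 of 14162 genes. The call was made in all 35 settings, the first one included, with log2 differences between -0.45 and -0.30 and adjusted p between 0.000212 and 0.0412.

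By library, Wfs1 had 1689, 1340, 1153, 1221 and 1441 normalised counts in the 5 3xTg mice on the ketogenic diet, against 2451, 1533, 2052 and 1877 in the 4 WT mice on it. On the MCT diet it had 1424, 1272, 1261 and 1072 normalised counts in 3xTg mice, against 1790, 1150, 1605 and 1466 in WT mice. On the control diet it had 1310, 1672 and 1867 normalised counts in 3xTg mice, against 1811, 1768, 2221 and 1978 in WT mice. The genotypes overlapped on each diet through the 3 libraries whose Thy1 level went against their label: these held the highest Wfs1 value of their 3xTg group on the ketogenic (1689) and control (1867) diets and the lowest of the WT group on the MCT diet (1150). Over the 21 other libraries the 3xTg and WT values did not overlap on any diet, and Wfs1 was the 1 gene of the 10 with non-overlapping ranges in 1 direction on each of the 3 diets, where 2.1% of all genes were. The groups are then small, with only 1310 and 1672 left for 3xTg mice on the control diet. On single diets, ranges over the 21 libraries also did not overlap for Rgs14 (control, higher in 3xTg) and Bok (ketogenic, lower). The share of all genes that did so on single diets over the 21 libraries is not given here. Groups this small can separate by chance, so no result is read from these single-diet separations. Pooled over diets the Wfs1 ranges of the 21 libraries still overlapped, with 9 of 10 3xTg libraries below the lowest WT value. The Wfs1 log2 difference over the 21 libraries was -0.45 ± 0.07 (SE; 95% confidence interval -0.61 to -0.30; limma adjusted p = 0.000212).

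**Figure D2:**
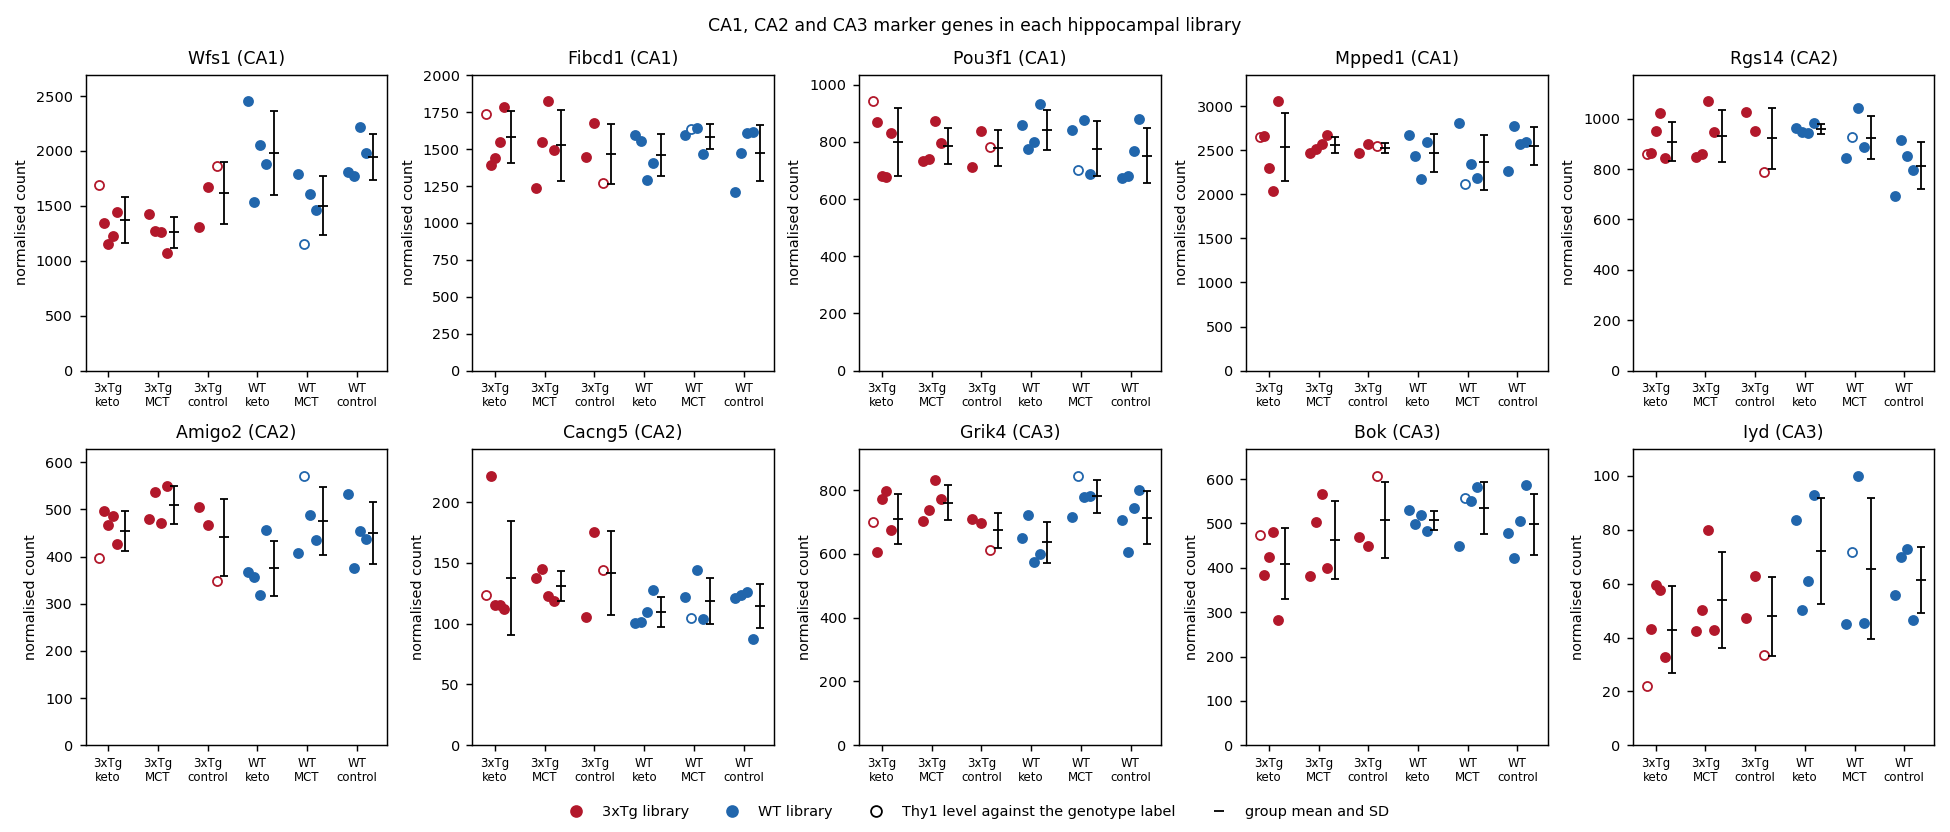
Normalised counts (vertical axes, from 0) of the 10 marker genes in each of the 24 libraries, by genotype and diet, with group mean and SD beside the points. Open circles are the 3 libraries whose Thy1 level goes against their label. Wfs1 runs from 1072 to 1867 in 3xTg and from 1150 to 2451 in WT libraries, and the open circles lie at the edge of their Wfs1 groups on the side of the other genotype.

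The other 3 CA1 genes did not pass the test. Fibcd1 ranged from 1240 to 1823 normalised counts in 3xTg and from 1209 to 1644 in WT libraries, with a log2 difference of 0.012 (95% confidence interval -0.12 to 0.14). Pou3f1 ranged from 676 to 941 in 3xTg and from 675 to 932 in WT libraries, with a log2 difference of -0.0020 (-0.13 to 0.13), and shares 330 exon bases with the antisense gene Gm2164. Mpped1 ranged from 2039 to 3055 in 3xTg and from 2122 to 2814 in WT libraries, with a log2 difference of 0.05 (-0.07 to 0.16). The intervals of these 3 genes lay above the whole interval of Wfs1, and over the 21 libraries their estimates stayed between -0.04 and 0.04. Whether Wfs1 differed from the other CA1 genes was not tested.

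Of the CA2 genes, Amigo2 was called higher in 3xTg mice over the 21 libraries but not over all 24. Its lowest, median and highest values were 349, 476 and 550 normalised counts in 12 3xTg libraries, against 319, 436 and 571 in 12 WT libraries. The ranges overlapped almost wholly, and the highest value of all, 571, was in the library labelled WT MCT replicate 2. Over all libraries Amigo2 had a log2 difference of 0.12 ± 0.07 (SE; limma adjusted p = 0.327). Without the 3 libraries the values ran from 427 to 550 in 10 3xTg libraries and from 319 to 534 in 11 WT libraries, and 10 of 10 3xTg libraries stood above the WT mean. The log2 difference was then 0.22 ± 0.07 (SE; 95% confidence interval 0.08 to 0.35; limma adjusted p = 0.0281), which is 16.4% higher, and 2 of the 10 genes were called where 13.2% of all genes were. Exons of Amigo2 share 58 bases with the oppositely transcribed Pced1b, whose log2 difference was -0.05 (limma adjusted p = 0.853). Whether the reads were counted by strand is not given in the sources used here.

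Cacng5 ranged from 106 to 221 normalised counts in 3xTg and from 87.8 to 144 in WT libraries, with 10 of 12 3xTg libraries above the WT mean. Its log2 difference of 0.24 ± 0.11 (SE) had a limma adjusted p of 0.164, and the highest value was in the library with the fewest reads. Over the 21 libraries it was 0.22 (limma adjusted p = 0.251). There, 7 of 10 3xTg libraries stood above the WT mean, with medians of 121 in 3xTg and 122 in WT libraries. Rgs14, which in mice restrains synaptic plasticity in CA2, ranged from 789 to 1068 in 3xTg and from 693 to 1041 in WT libraries. Its log2 difference was 0.04 (95% confidence interval -0.07 to 0.14), and 0.08 (limma adjusted p = 0.388) over the 21 libraries.

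Of the CA3 genes, Iyd had the largest estimate among the 10 and also the widest spread. Its lowest, median and highest values were 21.9, 45.3 and 80.1 normalised counts in 12 3xTg libraries, against 45.2, 65.6 and 99.9 in 12 WT libraries. The ranges overlapped, with 11 of 12 3xTg libraries below the WT mean and 6 of 12 below the lowest WT library. Between the genotypes Iyd differed by -0.47 ± 0.18 (SE; 95% confidence interval -0.83 to -0.11) on the log2 scale, with a limma adjusted p of 0.0982. Over the 21 libraries it was -0.30 ± 0.17 (SE; limma adjusted p = 0.275): the lowest 3xTg value, 21.9, was in the library labelled 3xTg ketogenic replicate 1.
Bok had 283, 459 and 607 normalised counts as lowest, median and highest in 12 3xTg libraries, against 422, 512 and 587 in 12 WT libraries. The 3xTg values spread more widely, with 4 of 12 below the lowest and 1 of 12 above the highest WT value. The log2 difference was -0.18 ± 0.08 (SE; limma adjusted p = 0.190), and -0.23 ± 0.09 (SE; limma adjusted p = 0.0800) over the 21 libraries. Grik4, whose product belongs to the kainate receptors of mossy fibre synapses on CA3, ranged from 605 to 831 in 3xTg and from 574 to 844 in WT libraries, with a log2 difference of 0.014 (95% confidence interval -0.10 to 0.12), and 0.05 (limma adjusted p = 0.632) over the 21 libraries.

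**Figure D3:**
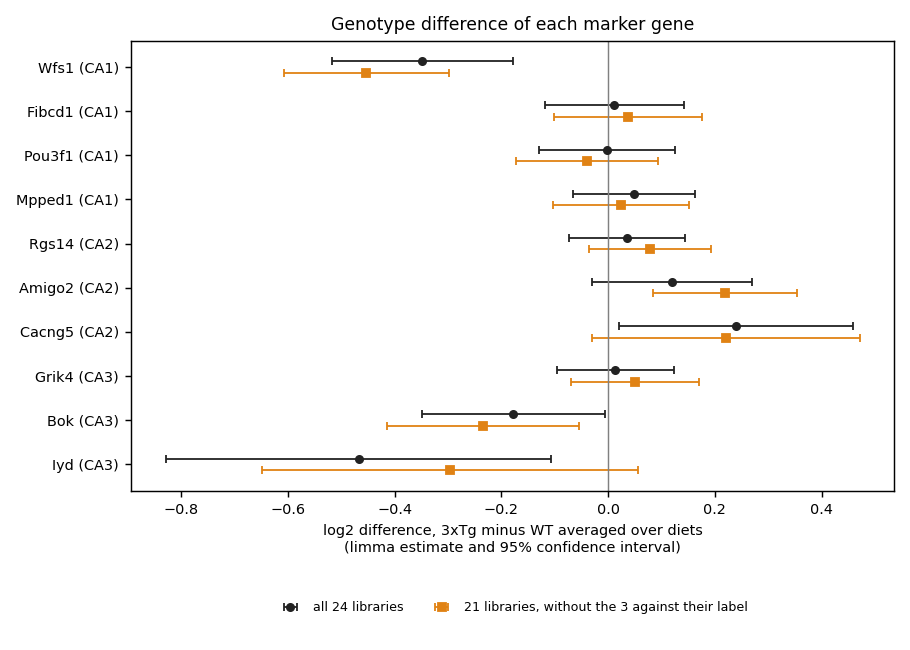
Log2 difference of each marker gene, 3xTg minus WT averaged over diets (horizontal axis), with 95% confidence intervals, over all 24 libraries (circles) and over 21 (squares). Wfs1 is at -0.35 and -0.45, Amigo2 at 0.12 and 0.22, and Iyd has the widest interval, from -0.83 to -0.11 over 24 libraries.

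Within single diets, none of the 10 genes was called over 24 libraries by limma or edgeR, and 1 by DESeq2. On the control diet 0 of 10 had an unadjusted limma p under 0.05, against 14.5% of all genes. At the adjusted threshold limma called 0.0565% and DESeq2 1.23% of all genes there. On the ketogenic diet 4 of 10 had an unadjusted limma p under 0.05, against 14.6% of all genes, and at the adjusted threshold limma called 0.155% and DESeq2 0.996%. On the MCT diet 0 of 10 had an unadjusted limma p under 0.05, against 7.12% of all genes, and at the adjusted threshold limma called 0% and DESeq2 0.155%.
The 4 genes on the ketogenic diet were Wfs1, Amigo2, Bok and Iyd. Wfs1 had a log2 difference of -0.52 ± 0.13 (SE; limma adjusted p = 0.0721; DESeq2 adjusted p = 0.0211). Over the 21 libraries it was -0.60 ± 0.12 (SE; limma adjusted p = 0.00337), 1 of 10 genes called where 3.62% of all genes were. Without 3xTg ketogenic replicate 1 alone the limma adjusted p was 0.0176, and without WT MCT replicate 2 alone it was 0.0390.

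Bok had 473, 384, 425, 480 and 283 normalised counts in the 5 3xTg mice on the ketogenic diet, against 531, 498, 518 and 482 in the 4 WT mice on it. Every 3xTg value was below every WT value, with 480 in 3xTg against 482 in WT mice at the nearest pair. It was the 1 gene of the 10 whose genotypes did not overlap on this diet, where 4.3% of all genes did not. Its log2 difference was -0.33 ± 0.14 (SE; limma adjusted p = 0.245). Amigo2 had 396, 497, 468, 486 and 427 normalised counts in 3xTg mice on the ketogenic diet, against 368, 356, 319 and 457 in WT mice on it. Its groups overlapped through WT replicate 4, and the log2 difference was 0.28 ± 0.12 (SE; limma adjusted p = 0.258). Iyd had 21.9, 43.2, 59.5, 57.6 and 32.7 normalised counts in 3xTg mice on the ketogenic diet, against 83.7, 50.3, 61.2 and 93.0 in WT mice on it. Its groups overlapped as well, with a log2 difference of -0.78 ± 0.28 (SE; limma adjusted p = 0.197).
On the other diets the Wfs1 log2 difference was -0.25 ± 0.14 (SE; limma adjusted p = 0.787) with MCT and -0.28 ± 0.15 (SE; limma adjusted p = 0.410) with the control food. The tests of whether a diet acted differently in the 2 genotypes called 0 of 10 genes by limma, edgeR and DESeq2, and 0% of all genes. At an unadjusted limma p under 0.05 there were 0 of 10 for either diet, against 6.68% of all genes for the ketogenic and 2.78% for the MCT diet. For Wfs1 the ketogenic effect in 3xTg minus that in WT was -0.25 on the log2 scale (limma adjusted p = 0.821).

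No diet comparison called any of the 10 genes by limma, edgeR or DESeq2. By limma 0% of all genes were called for the ketogenic minus the control diet in either genotype, for the MCT minus the control diet in 3xTg mice and for the ketogenic minus the MCT diet in 3xTg mice. In WT mice 0.00706% of genes, which is 1 gene, was called for MCT minus control and likewise for ketogenic minus MCT. At an unadjusted limma p under 0.05 the ketogenic minus control comparison held 1 of the 10 genes in 3xTg and 2 in WT mice, the MCT minus control comparison 1 in 3xTg and 2 in WT mice, and the ketogenic minus MCT comparison 0 in 3xTg and 3 in WT mice. Over all genes the share under that threshold was 6.69% in 3xTg and 4.62% in WT mice for ketogenic minus control. In the same order it was 2.67% and 4.79% for MCT minus control, and 3.43% and 3.57% for ketogenic minus MCT. Within a genotype, the ketogenic and the MCT comparison share their control libraries, and the ketogenic minus MCT comparison uses the same ketogenic and MCT libraries.

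Wfs1 had the lowest mean of the 3 diets on MCT in both genotypes. In 3xTg mice it averaged 1369 ± 210 normalised counts on the ketogenic diet (SD, n = 5), 1257 ± 144 on the MCT diet (SD, n = 4) and 1616 ± 283 on the control diet (SD, n = 3). In WT mice it averaged 1978 ± 382 on the ketogenic, 1503 ± 270 on the MCT and 1944 ± 205 on the control diet (SD, n = 4 each). The MCT minus control log2 difference was -0.35 ± 0.15 (SE; limma adjusted p = 0.999) in 3xTg and -0.38 ± 0.14 (SE; limma adjusted p = 0.989) in WT mice. Neither passed the test, and over the 21 libraries they were -0.24 and -0.26.

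The CA2 genes Rgs14 and Amigo2 gave ketogenic minus control estimates of opposite sign in WT mice. Rgs14 averaged 958 ± 19.3 normalised counts on the ketogenic and 814 ± 94.1 on the control diet (SD, n = 4 each), a log2 difference of 0.24 ± 0.09 (SE; limma adjusted p = 0.983). Amigo2 averaged 375 ± 58.4 on the ketogenic and 450 ± 65.1 on the control diet (SD, n = 4 each), a log2 difference of -0.26 ± 0.12 (SE; limma adjusted p = 0.983). In 3xTg mice the same differences were -0.01 for Rgs14 and 0.06 for Amigo2 over 24 libraries, and -0.11 and -0.05 over the 21 libraries, where the sign of Amigo2 turned.
Bok averaged 409 ± 80.3 normalised counts in 3xTg mice on the ketogenic diet (SD, n = 5) and 508 ± 86.1 on the control diet (SD, n = 3), a log2 difference of -0.32 ± 0.15 (SE; limma adjusted p = 0.724). The highest of these values, 607, was in the library labelled 3xTg control replicate 3. Grik4 in WT mice averaged 636 ± 64.7 on the ketogenic and 781 ± 51.8 on the MCT diet (SD, n = 4 each), a log2 difference of -0.30 ± 0.09 (SE; limma adjusted p = 0.999).

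**Figure D4:**
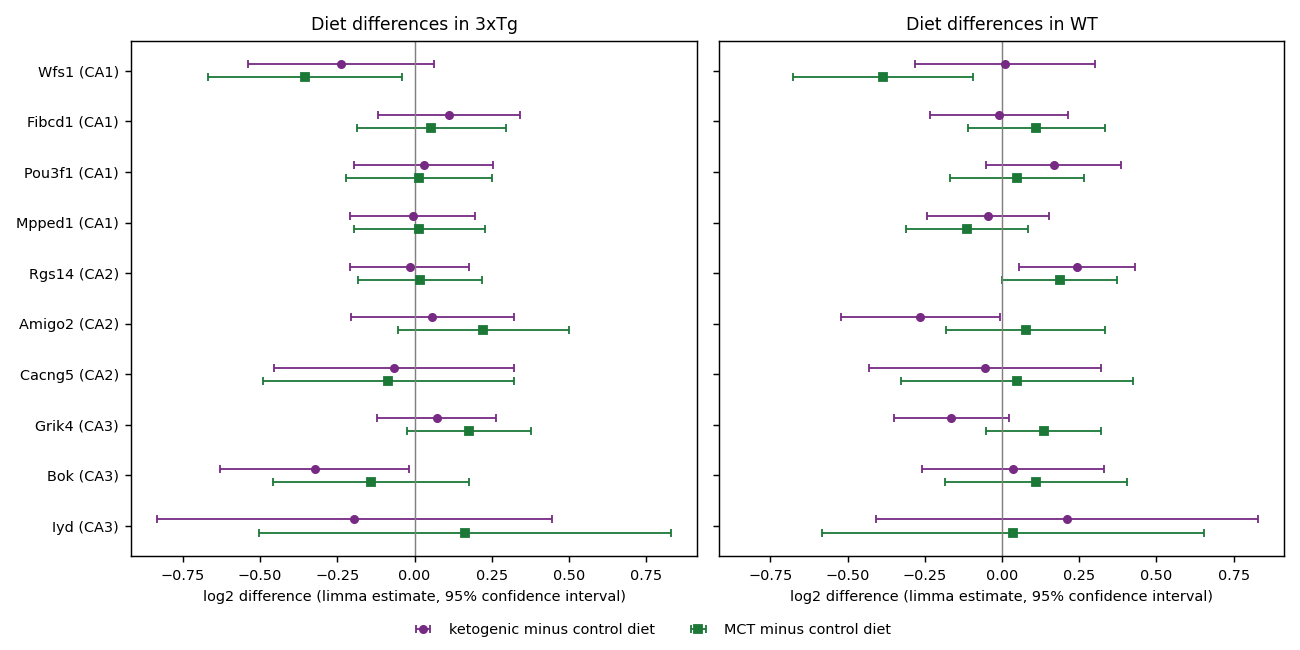
Log2 differences of the ketogenic (circles) and MCT (squares) diet from the control diet in 3xTg mice (left) and WT mice (right), with 95% confidence intervals. Wfs1 on MCT is at -0.35 in 3xTg and -0.38 in WT mice, and no gene was called in either panel.

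The markers also varied between mice of 1 group. The SD within groups on the log2 scale was 0.47 for Iyd, 0.28 for Cacng5, 0.23 for Wfs1 and for Bok, and between 0.14 and 0.19 for the other 6, against a median of 0.14 over all genes. Over 24 libraries with group means removed, 11 of the 12 pairs of genes from the same subfield had a positive Pearson r, with a median of 0.32, and the median over the 33 pairs from different subfields was -0.06. Whether these medians differ was not tested. CA1 and CA3 pairs lay between 0.10 and 0.62, and the CA2 pairs at 0.19, 0.11 and -0.13. The first of these, Rgs14 with Amigo2, had -0.10 over the 21 libraries. Of all 45 pairs, 1 passed a permutation test with adjustment over the pairs: the CA2 gene Rgs14 and the CA3 gene Iyd, with r = 0.71 (permutation p = 0.00030, adjusted p = 0.0135) and Spearman's rho = 0.76 (permutation p = 0.00007, adjusted p = 0.00315). Without the 2 libraries farthest from the median of Rgs14, r was 0.72. Over the 21 libraries r was 0.71, and the pair was no longer called. It was also not called without 3xTg MCT replicate 3 or without WT MCT replicate 3, the libraries with the highest Iyd values of their groups, where 0 pairs were called.
The CA1 genes Pou3f1 and Mpped1 had r = 0.62 (permutation adjusted p = 0.154) and Wfs1 and Pou3f1 r = 0.57 (permutation adjusted p = 0.142). Wfs1 and Amigo2 had r = -0.52 within groups (permutation adjusted p = 0.190) and -0.22 over the 21 libraries.

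**Figure D5:**
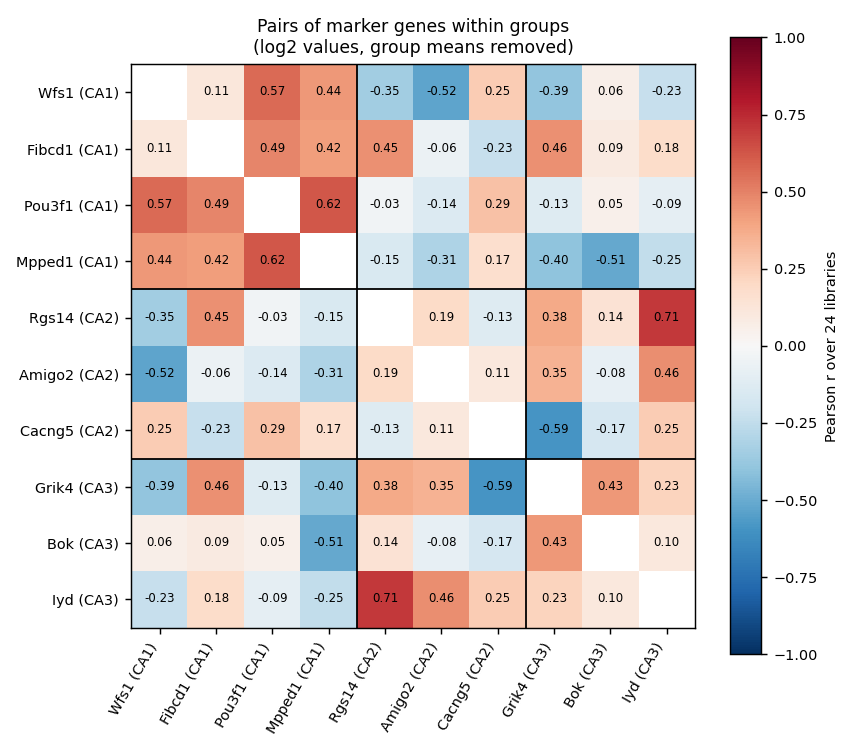
Pearson r between the marker genes over 24 libraries, from log2 normalised counts with group means removed, with lines between the subfields. Rgs14 and Iyd have the highest value, 0.71, and the CA1 block holds 0.62 for Pou3f1 with Mpped1.

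The genes whose levels ran most like each marker over the 24 libraries, group means removed, are given as a description over 12136 genes. Klk8, a secreted neuronal serine protease, ran most like Bok, at r = 0.92. Phactr1 and Fezf2, the second a transcription factor of deep-layer cortical neurons, ran most like Mpped1 at r = 0.89 and 0.88, followed by Fam189a1 at 0.87. For Wfs1 the nearest were Gsg1l, an AMPA receptor auxiliary protein, Prex1 and Lyplal1, at 0.82, 0.81 and 0.80, and for Fibcd1 Gal3st3, Wscd2 and Wasf1, at 0.88, 0.82 and 0.80. The other nearest genes lay between r = 0.75 and 0.83: Sec14l1, Cx3cl1 and Atcay for Pou3f1, Tmem160 and Evc2 for Rgs14, Insig2, Nudt5 and Tmcc1 for Amigo2, Ism1, Slc24a4 and Per2 for Cacng5, Acot1, Dtnbp1 and Tmbim4 for Grik4, Slc25a5 and Chn1 for Bok, and Lman2, Strip2 and Camk1d for Iyd. The value for Ism1 with Cacng5 was 0.60 without 3xTg ketogenic replicate 2, at place 31 of the genes compared, and that for Tmcc1 with Amigo2 was 0.47 over the 21 libraries, at place 197. Over the 21 libraries Gsg1l and Prex1 with Wfs1 had 0.75 and 0.66, at places 9 and 29. Insig2 and Nudt5 with Amigo2 had 0.67 and 0.64, at places 8 and 16. Klk8 with Bok (0.92), Phactr1 with Mpped1 (0.94), Gal3st3 with Fibcd1 (0.88) and Tmem160 with Rgs14 (0.81) stood at place 1 there.

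A further 21 genes with known use as CA1, CA2 or CA3 markers were examined between the genotypes averaged over diets. Of 6 other CA1 genes 1 was called higher and 0 lower, with a median log2 difference of -0.01. The called gene, Spink8, a serine protease inhibitor of the Kazal type, had 127, 363 and 458 normalised counts as lowest, median and highest in 12 3xTg libraries, against 96.7, 129 and 399 in 12 WT libraries. The ranges overlapped over 24 libraries and not over 21, where 10 of 10 3xTg libraries stood above the highest of 11 WT libraries and 1.29% of all genes had ranges that did not overlap. Spink8 had a log2 difference of 1.08 ± 0.20 (SE; limma adjusted p = 0.0022), so 2 CA1 markers, Wfs1 and Spink8, were called in opposite directions. Over the 21 libraries Ndst4, a heparan sulphate sulphotransferase, was also called, at -0.26 (limma adjusted p = 0.0104).

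Of 8 other CA2 genes 0 were called by limma, edgeR or DESeq2, and the median was 0.05. By each tool 2 had an unadjusted p under 0.05, where 24.4% of all genes did by limma. Avpr1b, the vasopressin receptor of CA2, had a log2 difference of 0.71 ± 0.24 (SE; limma adjusted p = 0.0652) at a mean of 11.3 normalised counts, and Stard5 0.22 ± 0.09 (SE; limma adjusted p = 0.139). Both were called higher over the 21 libraries, at 1.03 (limma adjusted p = 0.00183) and 0.30 (limma adjusted p = 0.0236). Of 7 other CA3 genes, Elavl2, an RNA-binding protein of neurons, was called higher at 0.17 ± 0.05 (SE; limma adjusted p = 0.0336) and Cpne4, a calcium-dependent phospholipid-binding protein, lower at -0.24 ± 0.05 (SE; limma adjusted p = 0.00449), and the median was 0.02. Cpne4 ranged from 1593 to 2282 normalised counts in 3xTg and from 2115 to 2804 in WT libraries, with 8 of 12 3xTg libraries below the lowest WT value. Both were also called over the 21 libraries, Elavl2 at 0.20 and Cpne4 at -0.29.

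Markers of other cells were read in the same comparison, and their part in the differences above was not tested. Of 8 general genes of excitatory neurons 2 were lower in 3xTg mice, Camk2a at -0.20 and Bcl11b at -0.20 on the log2 scale, and the list summed to between 97247 and 119382 normalised counts in 3xTg and between 105230 and 125301 in WT libraries. Of 9 dentate granule cell genes 4 were lower, C1ql2 at -1.10, Lct at -0.70, Prox1 at -0.30 and Stxbp6 at -0.26, and the list summed to between 8689 and 10451 in 3xTg and between 9190 and 12713 in WT libraries. Of 4 genes that are stronger in the ventral hippocampus 0 were called by limma, edgeR or DESeq2, with 0 at an unadjusted p under 0.05 in each, and that list summed to between 1202 and 2507 in 3xTg and between 1066 and 2642 in WT libraries.
Among oligodendrocyte genes Mobp was higher, at 0.23, by limma and DESeq2 but not by edgeR, and of 6 astrocyte genes Gfap and Slc1a3 were higher, at 0.24 and 0.10. Of 6 microglia genes Tmem119 and C1qa were higher, at 0.30 and 0.26, and of 8 GABAergic interneuron genes Vip and Gad2, at 0.45 and 0.12. Of 6 endothelial and mural cell genes Cldn5 and Flt1 were lower, at -0.43 and -0.22. From tissue next to the hippocampus, 1 of 3 subiculum genes was higher (Nts, 0.53), 1 of 5 striatum genes lower (Rgs9, -0.51) and 0 of 5 neocortex genes called. Of 4 mossy cell genes and of the 5 choroid plexus genes kept of 6, 0 were called as well. For these lists with 0 calls by limma, edgeR and DESeq2, the number at an unadjusted limma p under 0.05 was 0 for neocortex and mossy cell genes and 1 for choroid plexus genes. Of all genes 24.4% were under that threshold. Over the 21 libraries Mobp was no longer called (limma adjusted p = 0.0643). By limma, genes called over the 21 libraries and not over 24 were Csf1r of the microglia genes, higher at 0.18 (limma adjusted p = 0.00547), and 3 genes that were lower: Npy of the interneuron genes at -0.30 (limma adjusted p = 0.0155), Nrgn of the excitatory neuron genes at -0.17 (limma adjusted p = 0.0401) and Tek of the endothelial genes at -0.43 (limma adjusted p = 0.0106). The choroid plexus list summed to between 441 and 813 normalised counts in 3xTg and between 492 and 13029 in WT libraries. The medians were close, at 555 in 3xTg and 615 in WT libraries.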

How the data were processed

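Bulk RNA-seq was read from 24 mouse hippocampi. The authors deposited 1 table of signal values, normalised read counts for 21793 genes. The submitters' processing notes name Trimmomatic, STAR and GRCm38; which program counted reads, with which annotation and duplicate handling, and which tool scaled the counts is not given in the sources used here. Per the values, each column is whole reads divided by 1 factor: 100% of values came out whole within 0.01 reads, so the reads were recovered. Duplicates cannot be removed from such a table.

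A gene entered the tests if 3 or more libraries had a normalised count of 10 or more, as 14162 genes did. In R 4.3.3, limma 3.58.1 was run on log2(normalised count + 1) with a mean-dependent prior variance and a mean per group (6 groups). Its two-sided p-values were adjusted by Benjamini-Hochberg across the 14162 genes, and adjusted p under 0.05 counted as a call. Adding 1 shrinks differences of low genes. On the recovered reads, edgeR 4.0.16 and DESeq2 1.42.0 called 1214 and 1420 genes between the genotypes averaged over diets, and limma 1147. Of these, only the limma fit was tested on simulated data, for some of the comparisons.

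Pairs were tested with 100000 permutations of libraries within groups. The genes named were all 10 markers, up to 4 called genes of each other list by size of difference or up to 2 by smallest p where none was called, and the 3 genes most like each marker; a few genes that this rule takes are not reported here. The markers and lists were chosen with earlier results of these data known. Alternatives were pseudocounts of 0.5 and 5, no filter, a mean of at least 50 normalised counts, TMM factors, edgeR, DESeq2, a replicate block, weights per library, a fit of the compared groups alone, the 21 libraries whose Thy1 level goes with their label, and each library left out. Positions came from GENCODE, where 21556 symbols matched 1 gene.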

Additional observations from a re-analysis of the deposited data

Results flagged for a closer look

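A total of 2 values of Cacng5 stood apart from the rest of their group by Dixon's test at the 95% level. In 3xTg mice on the ketogenic diet, replicate 2 had 221 normalised counts, against 112 to 124 in the other 4 libraries. This library had the fewest reads, and the value rests on 41 reads, with an exact Poisson 95% interval of 159 to 300 normalised counts that covers counting error only. In WT mice on the control diet, replicate 4 had 87.8 normalised counts, against 122 to 126 in the other 3 libraries. That value rests on 98 reads, with an exact Poisson 95% interval of 71.3 to 107 normalised counts. Of 50 groups of 4 or 5 libraries examined, 2 held such a value, where chance gives about 2.5.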

How the results depend on the processing

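Wfs1 was called between the genotypes averaged over diets in every setting run, and leaving out each library in turn always gave 1 called gene of the 10. Without the 3 libraries whose Thy1 level goes against their label, 2 were called, Wfs1 and Amigo2. Between the genotypes on the ketogenic diet, 1 gene (Wfs1) was called by DESeq2 and 1 without the 3 libraries, and leaving out single libraries gave between 0 and 1. Pairs called fell to 0 without the 3 libraries and lay between 0 and 2 when single libraries were left out. The cause was not tested. No log2 difference that was called changed sign. Over all genes the genotype comparison called 1147, and 1797 with library weights, 1858 without the 3 libraries and 576 without 3xTg control replicate 1. TMM factors moved the median of all genes by at most 0.002 on the log2 scale. The groups share replicate numbers, but the numbers do not pair the libraries: the median correlation of same-numbered libraries was -0.00028 (range -0.256 to 0.248), and 6 of 24 libraries correlated best with one of their own number. With the replicate block 1 of the 10 genes and 1177 of all genes were called, and 0 of the 10 in each other comparison. The average over diets with the compared groups alone was not run, since it uses all 6 groups. At 8 reads for Iyd in the shallowest library, depth limits the precision of the low genes.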

Other observations

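Genes within 1 Mb of each marker were read between the genotypes averaged over diets, as values, where 3.71% of all genes were called higher and 4.38% lower. Around Wfs1, 1 of 18 kept genes was called, Crmp1, and it was lower in 3xTg mice as Wfs1 was. Around Mpped1, itself not called, 3 of 24 kept genes were called higher and 4 lower. Around Cacng5, 3 of 11 kept genes were called lower, Pitpnc1, Helz and Prkca, while the Cacng5 estimate was positive. Called around other markers were 3 of 46 kept genes for Fibcd1, 2 of 39 for Rgs14 and 1 of 19 for Bok, all lower. For Grik4 1 of 8 was called, higher, and for Pou3f1, Amigo2 and Iyd none was called.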
